A study of Rattus norvegicus with 15 samples.

Results

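The Ugt2b glucuronosyltransferases were followed in 15 samples of liver from male Sprague Dawley rats on an Affymetrix array for the rat, which reads each gene through 1 or more sets of short probes. All probe sets whose single gene symbol in the platform annotation starts with Ugt2b were taken, which gave 7 genes of 14217 and 8 probe sets of 31099. Ugt2b itself was read by 2 probe sets, and Ugt2b1, Ugt2b7, Ugt2b10, Ugt2b15, Ugt2b34l1 and Ugt2b35 by 1 each. The members were chosen by their measured log2 values, since Ugt2b was already known to be high in some of these livers and low in others. The levels of its members are therefore given as a description, with no test. Rats from Charles River entered at 7 weeks of age, received high-fat chow in which fat supplied 59% of the energy, and were dosed by daily gavage over 6 weeks. One group of 5 samples received the vehicle, 0.5% methylcellulose, and the other groups, also of 5 samples each, received PF-04923503 at 10 mg/kg or at 30 mg/kg. PF-04923503 is labelled an inhibitor of ACC, acetyl-CoA carboxylase, which makes malonyl-CoA for fatty acid synthesis. All groups shared the strain, sex, supplier and diet, and the control rats were on the fat-rich diet too. Samples are called livers for short, although it is not stated that every sample came from a different rat, and the p-values below therefore rest on a spread that may be technical.

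UDP-glucuronosyltransferases sit in the membrane of the endoplasmic reticulum and join glucuronic acid from UDP-glucuronic acid to steroids, bile acids, bilirubin and drugs, which then leave in bile and urine. The liver holds many of them, and the Ugt2b group is best known for steroids. In the RefSeq annotation Ugt2b carries the synonym Ugt2b2, the name of the rat enzyme known for glucuronidating androsterone. Some Wistar rats are known to lack androsterone glucuronidation through an inherited deletion of that gene. Rat UGT2B1 is known to act on testosterone and morphine and to be induced by phenobarbital. The labels give no genotype for the Sprague Dawley rats used here.

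In the GRCr8 assembly the 7 genes lie in 1 stretch of chromosome 14, in the order Ugt2b, Ugt2b15, Ugt2b35, Ugt2b7, Ugt2b1, Ugt2b10 and Ugt2b34l1. Ugt2b37, Ugt2b7l1, several pseudogenes and a few other genes, such as Ppial4d, lie among them and had no probe set with a single symbol. RefSeq promoter windows, from 250 bases before to 50 bases after the gene's start, were matched for all 7 genes. The windows of Ugt2b, the gene that was high or low by liver, of Ugt2b15 and Ugt2b35, its steadier neighbours, and of Ugt2b1, the member that stood higher in treated samples, are shown for comparison, with the GRCr8 position and strand in parentheses. Capitals mark the longest run of letters that at least 4 of the 7 windows share.
Ugt2b (chr14:20985199-20985498, plus strand): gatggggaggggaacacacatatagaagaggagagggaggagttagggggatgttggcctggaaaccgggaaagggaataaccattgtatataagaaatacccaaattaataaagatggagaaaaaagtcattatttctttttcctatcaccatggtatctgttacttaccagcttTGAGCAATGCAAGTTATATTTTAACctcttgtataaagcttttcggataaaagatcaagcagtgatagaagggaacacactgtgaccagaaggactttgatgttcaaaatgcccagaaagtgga
Ugt2b15 (chr14:21122616-21122915, plus strand): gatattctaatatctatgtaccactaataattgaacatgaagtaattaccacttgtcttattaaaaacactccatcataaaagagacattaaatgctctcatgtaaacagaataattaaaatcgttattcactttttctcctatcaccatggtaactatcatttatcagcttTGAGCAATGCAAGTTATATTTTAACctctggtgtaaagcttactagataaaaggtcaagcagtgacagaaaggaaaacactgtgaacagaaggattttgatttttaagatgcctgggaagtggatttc
Ugt2b35 (chr14:21208191-21208490, plus strand): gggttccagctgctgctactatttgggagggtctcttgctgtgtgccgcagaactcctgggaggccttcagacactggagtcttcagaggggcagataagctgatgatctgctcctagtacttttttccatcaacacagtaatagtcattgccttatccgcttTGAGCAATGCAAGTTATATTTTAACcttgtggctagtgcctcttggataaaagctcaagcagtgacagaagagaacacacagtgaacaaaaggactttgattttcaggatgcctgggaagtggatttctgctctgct
Ugt2b1 (chr14:21378632-21378931, plus strand): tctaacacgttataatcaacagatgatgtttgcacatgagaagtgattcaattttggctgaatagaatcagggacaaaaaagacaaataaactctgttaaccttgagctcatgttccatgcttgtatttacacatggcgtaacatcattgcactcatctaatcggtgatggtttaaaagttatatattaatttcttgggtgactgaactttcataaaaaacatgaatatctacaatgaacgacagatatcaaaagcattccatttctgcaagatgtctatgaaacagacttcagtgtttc

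The shared run, TGAGCAATGCAAGTTATATTTTAAC, is 25 bases long and was present in the windows of Ugt2b, Ugt2b7, Ugt2b15 and Ugt2b35. Counted from the start of the gene, it begins at -74 in Ugt2b and at -78 in Ugt2b15. Of 27457 rat promoter windows of the same length, 6, or 0.0219%, held it on either strand, and these were those of the 4 genes named and of Ugt2b37 and Ugt2b7l1. The windows of Ugt2b1, Ugt2b10 and Ugt2b34l1 did not hold this exact run, and variants of it were not searched for. The closest pair of windows, Ugt2b35 and Ugt2b7, was identical at 68.6% of aligned positions. Ugt2b and Ugt2b15 were identical at 65.2%, and Ugt2b and Ugt2b1 at 48.5%. TATAAA, the motif of a TATA box, was searched on both strands and found in the windows of Ugt2b and Ugt2b10 and in 14.3% of all windows. In Ugt2b it read TATAAA, beginning at -43, and in Ugt2b10 it read as the reverse complement, TTTATA, beginning at -34. GTTAAT, a half-site of the liver factor HNF1, was found for Ugt2b10 and in 7.37% of all windows. In Ugt2b10 the match was the reverse complement, ATTAAC, beginning at position 17, after the gene's start. AGGTCA, a half-site of nuclear receptors, was found for Ugt2b15 and in 15.7% of all windows. These motifs were searched letter for letter, so close variants of them were not counted in any window. Copies of a gene family can share labelled RNA on the array. Neither the likeness of their transcripts nor the probe sequences were examined here, so each probe set's value may hold signal from a neighbouring copy.

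Ugt2b was either high or low, with nothing between on its second probe set. On the first probe set the log2 values of the vehicle samples, in order of sample number, were 13.99, 13.92, 8.95, 13.71 and 6.29. At 10 mg/kg they were 13.61, 13.95, 13.99, 13.75 and 13.97. At 30 mg/kg they were 13.68, 13.63, 6.37, 6.36 and 6.47. Vehicle samples 3 and 5 and 30 mg/kg samples 3, 4 and 5 were thus low, and the other 10 livers were high. The high livers lay between 13.61 and 13.99, a narrower span than the distance of 4.65 on the log2 scale that parted the lowest of them from the highest low liver. Low livers came close to the median of all values on the arrays, 6.10, except vehicle sample 3.

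The second probe set parted the livers in the same way. Its vehicle values were 10.62, 10.53, 4.05, 9.63 and 4.14. The values at 10 mg/kg were 9.63, 10.48, 10.84, 9.90 and 10.57, and those at 30 mg/kg were 9.66, 9.82, 4.28, 4.24 and 4.29. The same 5 livers were low, between 4.05 and 4.29, and the high livers lay between 9.63 and 10.84. Vehicle sample 3, which stood above the other low livers on the first probe set, was the lowest of all 15 here. Scaled from 0 at the lowest to 1 at the highest liver, the profiles of both probe sets differed by 0.0785 on average over the 15 samples.

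**Figure D1:**
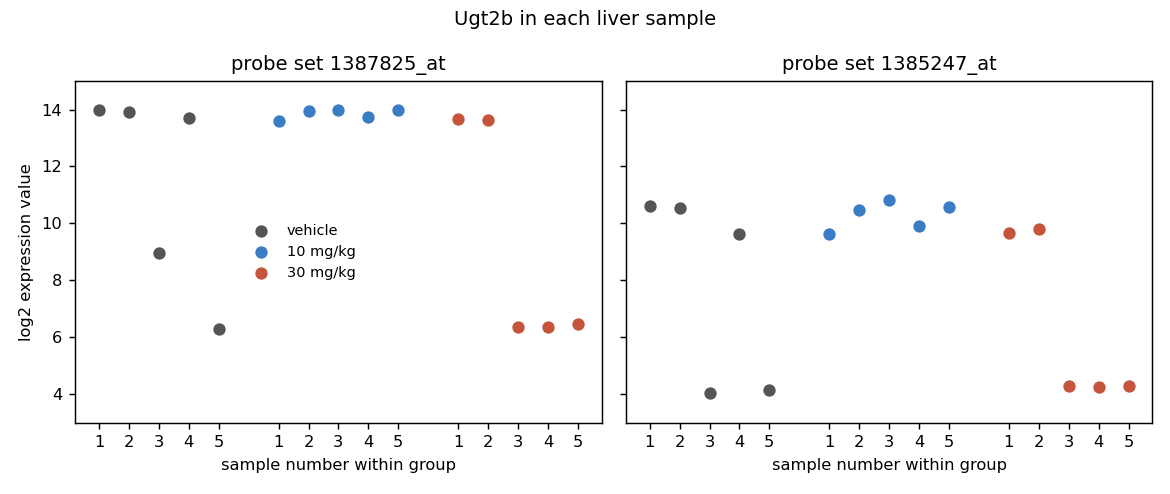
Log2 expression value of Ugt2b (vertical axis) in each of the 15 liver samples, by sample number within the vehicle (grey), 10 mg/kg (blue) and 30 mg/kg (red) groups, for the first probe set on the left and the second on the right. Each point is 1 sample: 5 livers, vehicle samples 3 and 5 and 30 mg/kg samples 3, 4 and 5, lie far below the other 10 on both probe sets.

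By group, Ugt2b was high in 3 of 5 vehicle livers, 5 of 5 livers at 10 mg/kg and 2 of 5 at 30 mg/kg. The group means followed these counts. On the first probe set they were 11.37 ± 3.56 in vehicle, 13.85 ± 0.17 at 10 mg/kg and 9.30 ± 3.97 at 30 mg/kg (SD, n = 5 each). On the log2 scale the 10 mg/kg mean lay 2.48 from that of vehicle, and the 30 mg/kg mean -2.07. Both differences were smaller than the pooled SD of the samples compared, 2.52 and 3.77. For the second probe set the differences were 2.49 and -1.34, with pooled SDs of 2.43 and 3.20, so the difference at 10 mg/kg slightly exceeded its pooled SD there. The 30 mg/kg mean lay -4.55 from the 10 mg/kg mean on the first probe set and -3.83 on the second, more than the pooled SDs of 2.81 and 2.15. These were the widest differences in the family. Leaving out 1 sample at a time moved the first probe set between 1.21, without vehicle sample 5, and 3.13, without vehicle sample 1, at 10 mg/kg, and between -3.34 and -1.33 at 30 mg/kg, where vehicle sample 5 and 30 mg/kg sample 4 set the ends. The second probe set ran from 1.55 to 3.20 at 10 mg/kg, with vehicle samples 3 and 1 left out at the ends, or 2.94-fold to 9.17-fold against 5.62-fold. At 30 mg/kg it ran from -2.27 to -0.63, with the same samples at the ends. Between the doses the ranges were -5.64 to -3.81 and -4.67 to -3.27, and the samples left out at the ends were 30 mg/kg samples 1 and 4 on the first probe set and 2 and 4 on the second. The values of every pair of groups overlapped on both probe sets, so no order of the groups is read from the means.

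Distances of this kind were rare on the array. With at least 3 livers on each side, the largest distance between neighbouring sorted values was ranked over 31042 probe sets, leaving out controls. Ugt2b took rank 1, with 5.34 for the second probe set, and rank 3, with 4.65 for the first. Rank 2 went to Abhd3, with 5.20 and 3 livers above, rank 4 to Hamp, which encodes hepcidin, with 4.07, and rank 5 to Fam111a, with 3.92. As this is the pattern that chose the family, the ranks describe it and test nothing.

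No named gene came near the profile of Ugt2b. Among 1297 probe sets with 1 symbol and a range of at least 1 on the log2 scale, the most alike was Bhlhe40, a repressor of the circadian clock, whose scaled profile differed from that of Ugt2b by 0.258 on average over the 15 samples. RGD1562465 differed by 0.265, Spring1, a protein needed for SREBP activation, by 0.281, Chic1 by 0.283 and Agxt2, a mitochondrial aminotransferase, by 0.287. All of these lay farther off than the second probe set of Ugt2b.

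The measured genes nearest to Ugt2b did not share the break. Those directly beside it on both sides, among them Ugt2a3, LOC134478834 and Ugt2b-ps1, had no probe set with a single symbol. How far the break reaches along the chromosome can therefore not be read. Ugt2b15, the next family member along chromosome 14, ran from 12.52 to 12.91 over all 15 livers, and 3 of its 5 lowest livers were low for Ugt2b. On the other side, Ugt2a1, an enzyme best known from the nose, was dim, between 5.83 and 6.56, around the median of all values. Its 5 lowest livers were the 5 livers low for Ugt2b, although the fifth lowest value, 6.09, lay close to the next, 6.14. Sult1b1, a sulfotransferase beyond Ugt2a1, ran from 12.64 to 13.06 and shared 4 of its 5 lowest livers with Ugt2b. Sult1e1, the oestrogen sulfotransferase, shared 1, and Ythdc1, a reader of methylated RNA at the far end of the cluster, shared 3. These genes were singled out for their position, and Ugt2a1 was noticed after its values were seen.

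Ugt2b1 was higher in the treated groups than in vehicle. Its vehicle values, by sample number, were 11.27, 7.65, 10.52, 10.21 and 10.68. At 10 mg/kg they were 11.38, 11.75, 11.46, 11.80 and 11.89, and at 30 mg/kg they were 10.61, 10.94, 11.42, 11.33 and 11.31. All 5 livers at 10 mg/kg lay above all 5 vehicle livers, while the 30 mg/kg livers overlapped both other groups. Vehicle sample 2 was far below every other liver, and it was high for Ugt2b.

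Group means of Ugt2b1 were 10.06 ± 1.40 in vehicle, 11.66 ± 0.22 at 10 mg/kg and 11.12 ± 0.34 at 30 mg/kg (SD, n = 5 each). The mean at 10 mg/kg was 1.59 above vehicle on the log2 scale, 3.02-fold, against a pooled SD of 1.01. At 30 mg/kg it was 1.06 above, 2.08-fold, against a pooled SD of 1.02. The 30 mg/kg mean was 0.53 below the 10 mg/kg mean, with a pooled SD of 0.29. From high to low the groups stood in the order 10 mg/kg, 30 mg/kg and vehicle, and in both neighbouring pairs of that order the values overlapped. Vehicle sample 2 decided much of the size: without it the differences from vehicle were 0.99 and 0.45, or 1.98-fold and 1.37-fold.

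Of the 8 probe sets, Ugt2b1 was the 1 whose 10 mg/kg and vehicle values did not overlap, where 1.48% of all 31042 probe sets did not. Between 30 mg/kg and vehicle 0 of 8 were without overlap, with 2.83% of all probe sets, and between the doses 0 of 8, with 1.05%. Nothing is read from these counts, as the family was picked with these values known. Other measures were compared between the groups as well, but not liver by liver with Ugt2b1. Of 8 listed Kupffer cell and macrophage markers, 7 were on the array and all 7 passed the filter on low values. Their median difference from vehicle was -0.41 on the log2 scale at either dose. The log2 of their summed level ran from 12.41 to 13.02 in vehicle, 11.99 to 12.63 at 10 mg/kg and 11.78 to 12.97 at 30 mg/kg. Markers of some other cells were lower too, with median differences of -0.41 and -0.22 for red blood cells and -0.28 and -0.20 for endothelial cells. Stellate cell markers gave -0.20 and -0.11. Cholangiocyte markers were higher, at 0.16 and 0.15. Those of intestine or pancreas gave 0.11 and 0.10, those of kidney 0.05 and 0.11 and those of lymphocytes -0.004 and 0.008. In the cholangiocyte, intestine or pancreas, kidney and lymphocyte sets most markers on the array did not pass the filter. The 7 measured hepatocyte markers had median differences of 0.015 and 0.0006. The signal at the 3' end of Gapdh exceeded that at its 5' end by 0.39 ± 0.03 in vehicle, 0.34 ± 0.02 at 10 mg/kg and 0.37 ± 0.09 at 30 mg/kg (log2, SD, n = 5 each). For hexokinase the same measure ran the other way at 10 mg/kg, with 1.83 ± 0.05, 1.93 ± 0.07 and 1.80 ± 0.19. The part of these measures in the difference of Ugt2b1 was not tested. In bulk liver, fewer cells of a type and less RNA per cell cannot be told apart.

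The genes most alike to Ugt2b1 over the 15 samples were Abca1, a cholesterol exporter, and Fads2, a fatty acid desaturase, with mean differences between scaled profiles of 0.154 and 0.165. Slc39a4, a zinc importer, followed with 0.168, then Mtmr1, a phosphoinositide phosphatase, with 0.169, and Apoa4, an apolipoprotein, with 0.175. Mean log2 values of Abca1 were 9.43 ± 1.07 in vehicle, 10.86 ± 0.39 at 10 mg/kg and 10.68 ± 0.33 at 30 mg/kg (SD, n = 5 each). Those of Fads2 were 12.14 ± 0.40, 12.92 ± 0.15 and 12.62 ± 0.18. Mtmr1 differed by at most the spread of its samples, with means of 6.51 ± 0.47, 6.60 ± 0.28 and 6.49 ± 0.14.

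**Figure D2:**
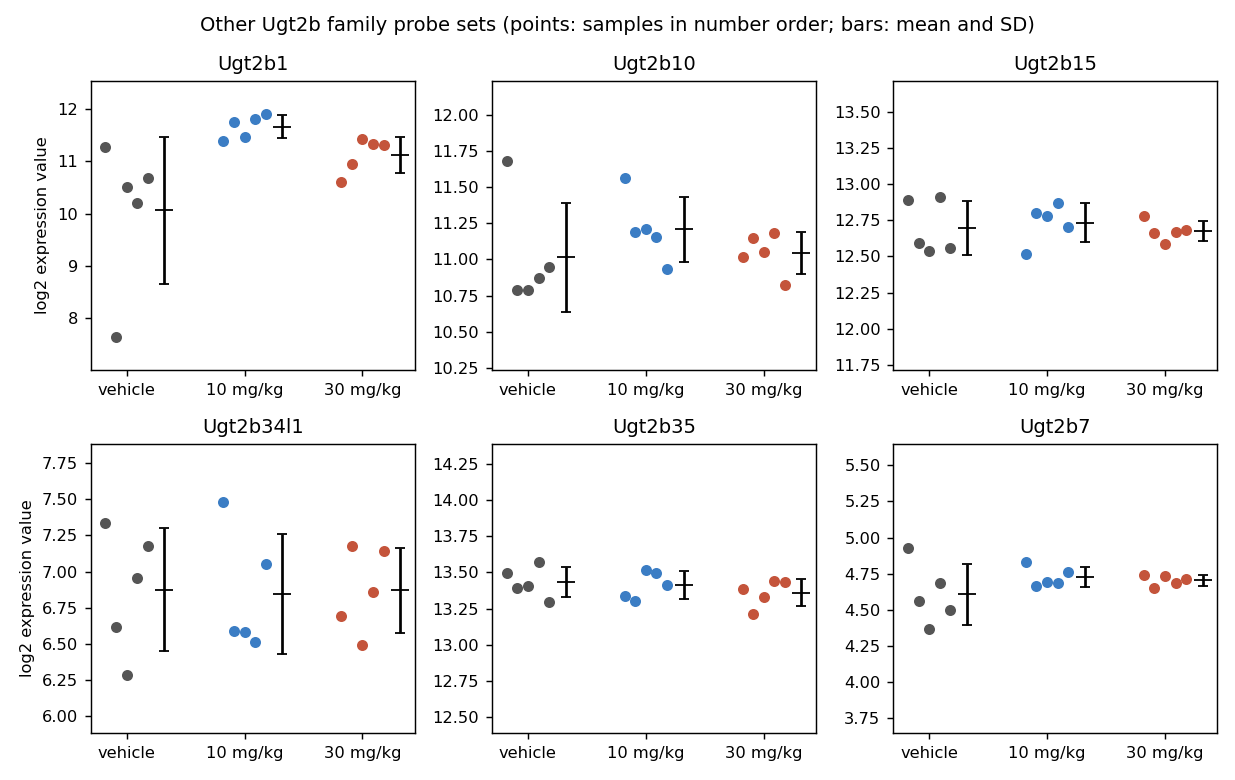
Log2 expression value (vertical axis, scaled separately in each panel) of the 6 family genes other than Ugt2b by group. Points are samples in number order, and the bars beside them are the mean and SD of 5 samples: Ugt2b1 has all 10 mg/kg points above the vehicle points, and the other 5 genes overlap between groups.

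The remaining members differed little between groups. Ugt2b35 ran from 13.21 to 13.57 over all livers, with means of 13.43 ± 0.10 in vehicle, 13.41 ± 0.10 at 10 mg/kg and 13.36 ± 0.09 at 30 mg/kg (SD, n = 5 each). Ugt2b15, which carries the synonym Ugt2b3 of a rat enzyme known to act on testosterone, had means of 12.70 ± 0.18, 12.73 ± 0.13 and 12.68 ± 0.07. Ugt2b7 was dim in every liver, between 4.37 and 4.93, and was the 1 probe set of the 8 that did not pass the filter on low values. Ugt2b34l1 had means of 6.88 ± 0.43, 6.84 ± 0.42 and 6.87 ± 0.29. In these 4 genes no difference from vehicle at either dose exceeded the pooled SD of the samples compared.

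Ugt2b10 varied between livers rather than between groups. Its vehicle values were 11.68, 10.79, 10.79, 10.87 and 10.95, its 10 mg/kg values 11.56, 11.19, 11.21, 11.15 and 10.93, and its 30 mg/kg values 11.02, 11.15, 11.05, 11.19 and 10.82. Vehicle sample 1 and 10 mg/kg sample 1 were the highest, and all groups overlapped. The means were 11.01 ± 0.38, 11.21 ± 0.23 and 11.05 ± 0.14 (SD, n = 5 each). Ugt2b34l1 was also highest in 10 mg/kg sample 1, at 7.48, and vehicle sample 1, at 7.34.

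The genes most alike to Ugt2b10 were Sult2a2, a sulfotransferase, with a mean difference between scaled profiles of 0.123, and Irx1, a homeobox factor, also with 0.123. Sult2a6, another sulfotransferase, followed with 0.132, Cux2, a homeobox factor, with 0.138 and Tacr1, the receptor of substance P, with 0.139. Sult2a2 was dim, with group means between 4.25 and 4.56. For Ugt2b35 the most alike was Cyth3, with 0.141, for Ugt2b34l1 Pard6g, with 0.161, for Ugt2b7 Nupr1, with 0.161, and for Ugt2b15 RGD1562465, with 0.195.

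**Figure D3:**
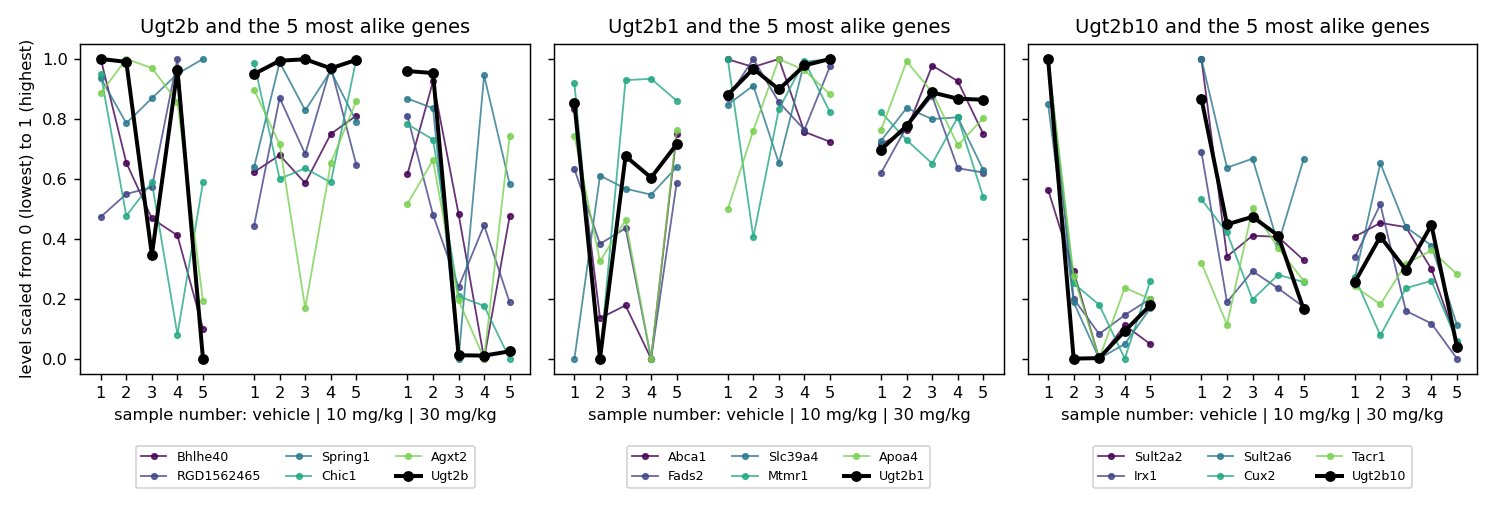
Levels scaled from 0 at the lowest to 1 at the highest of the 15 samples (vertical axis) for Ugt2b, Ugt2b1 and Ugt2b10 (thick black) and the 5 genes most alike to each (thin colours), by sample number within the vehicle, 10 mg/kg and 30 mg/kg groups. The lines join samples of a group only for the eye; most genes alike to Ugt2b10 also stand high in vehicle sample 1 or 10 mg/kg sample 1, while those nearest to Ugt2b (0.258 and more) miss its break.

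**Figure D4:**
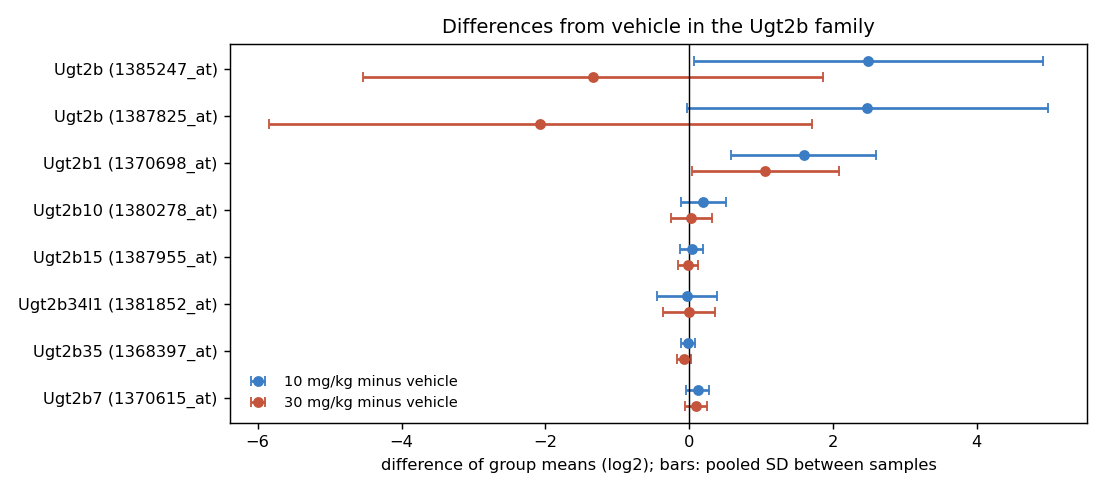
Difference of the group mean from vehicle (horizontal axis, log2) for the 8 probe sets at 10 mg/kg (blue) and 30 mg/kg (red), with bars of 1 pooled SD between samples. Ugt2b differs by 2.48 and 2.49 at 10 mg/kg and by -2.07 and -1.34 at 30 mg/kg with wide bars, Ugt2b1 lies above 0 at both doses, and the other members lie near 0.

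Other genes of glucuronidation, and genes of related or neighbouring liver functions, were read from 10 gene lists. The lists held 147 genes outside the family, of which 105 passed the filter. The question was whether these genes differed between treated and vehicle livers. Of the 105 genes, 0 were called at 10 mg/kg by limma at an adjusted p under 0.05, where 0.105% of all 9540 genes were, and 28 had an unadjusted p under 0.05. At 30 mg/kg 0 were called, with 0% of all genes, and 16 had an unadjusted p under 0.05. Between the doses 0 were called, with 0% of all genes, and 6 had an unadjusted p under 0.05. The share with an unadjusted p under 0.05 at 10 mg/kg was 26.7% of the listed genes and 13.3% of all genes. At 30 mg/kg it was 15.2% and 16.1%. Such a p at 10 mg/kg was reached by 8 of 17 sulfotransferases and other conjugating enzymes and 6 of 14 steroid genes. Among periportal genes 4 of 10 reached it. The lists nearest to glucuronidation had 0 of 1 UGT enzyme, 1 of 8 UDP-glucuronate supply and turnover genes and 0 of 8 transporters. The median difference of the 105 genes was -0.02 and -0.04 on the log2 scale at the respective doses, and that of all genes -0.02 and -0.03.

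Enzymes of the UGT families outside Ugt2b were mostly read together. Both probe sets for Ugt1a carry 8 gene symbols each, so none of these genes is named singly. One of them averaged 12.80 ± 0.22 in vehicle, 12.82 ± 0.11 at 10 mg/kg and 12.86 ± 0.12 at 30 mg/kg, and the other 12.15 ± 0.22, 12.17 ± 0.11 and 12.23 ± 0.16 (SD, n = 5 each). Ugt2a1 averaged 6.16 ± 0.25, 6.42 ± 0.14 and 6.06 ± 0.22, with limma adjusted p = 0.380 and 0.718 against vehicle.

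Of 8 measured genes of UDP-glucuronate supply and glucuronide turnover 0 were called by limma, 1 had an unadjusted p under 0.05 at 10 mg/kg and 0 at 30 mg/kg. The list medians were -0.10 and -0.08. Ugp2, which makes UDP-glucose, had 0.740-fold the vehicle level at 10 mg/kg (95% confidence interval 0.598 to 0.917; limma adjusted p = 0.242) and 0.874-fold at 30 mg/kg (adjusted p = 0.528). Ugdh, which oxidises UDP-glucose to UDP-glucuronic acid, stood at 0.881-fold and 1.02-fold, with limma adjusted p = 0.470 and 0.928. Rgn, the lactonase of ascorbate synthesis, stood at 0.884-fold and 0.944-fold.

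Transporters that carry conjugates had medians of -0.03 and -0.07 over 8 members. Abcc2, which exports glucuronides into bile, was at 0.877-fold and 1.12-fold the vehicle level, Abcg2, another canalicular exporter, at 0.995-fold and 0.771-fold, and Slco2b1, an uptake carrier, at 0.947-fold and 0.901-fold, with limma adjusted p between 0.242 and 0.996. Slco2b1 was the 1 member whose 30 mg/kg and vehicle values did not overlap, where 3.21% of all 9540 genes did not.

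Among 15 regulators of UGT genes, 11 were lower in mean at each dose. Their medians were -0.05 and -0.12, against -0.02 and -0.03 over all genes. An unadjusted limma p under 0.05 was found for 2 and 3 of them, with 13.3% and 16.1% of all genes. Foxa3, a forkhead factor of hepatocytes, averaged 8.83 ± 0.26 in vehicle, 8.22 ± 0.51 at 10 mg/kg and 8.03 ± 0.21 at 30 mg/kg (SD, n = 5 each), with limma adjusted p = 0.242 and 0.131. Its 30 mg/kg values did not overlap those of vehicle, as in 3.21% of all 9540 genes. Nr1i3, the receptor CAR that mediates phenobarbital induction, was at 0.665-fold and 0.796-fold the vehicle level, with limma adjusted p = 0.356 and 0.558. Foxa2 was at 1.48-fold in both, with limma adjusted p = 0.488 and 0.423.

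Known targets of the receptors CAR, PXR and AhR had medians of -0.02 and -0.07 over 15 members. Nqo1, a quinone reductase, was at 0.644-fold the vehicle level at 10 mg/kg and 1.05-fold at 30 mg/kg, with limma adjusted p = 0.282 and 0.905. Ces2c, a carboxylesterase, was at 0.752-fold and 0.711-fold, with adjusted p = 0.276 and 0.172, and Cyp3a9, a cytochrome P450, at 1.33-fold and 1.49-fold, with adjusted p = 0.810 and 0.667.

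Genes listed under steroid metabolism, some of whose products supply or compete for Ugt2b substrates, had medians of -0.01 and -0.02 over 14 members. Hsd17b13, a lipid droplet dehydrogenase, averaged 11.65 ± 0.30 in vehicle, 12.19 ± 0.11 at 10 mg/kg and 11.92 ± 0.15 at 30 mg/kg (SD, n = 5 each), and its 10 mg/kg values lay above all vehicle values. These groups did not overlap in 2.44% of all 9540 genes. Between the doses its values did not overlap either, where 0.943% of all genes did not. Its fold at 10 mg/kg was 1.45 (95% confidence interval 1.22 to 1.74; limma adjusted p = 0.105), the lowest adjusted p of any listed gene in that comparison. Hsd3b7, of bile acid synthesis, was at 0.565-fold and 0.702-fold the vehicle level, with limma adjusted p = 0.164 and 0.286. Hsd17b6, which acts on androgens, was at 1.58-fold and 1.13-fold, with adjusted p = 0.419 and 0.835.

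Sulfotransferases and other conjugating enzymes had medians of -0.005 and -0.01 over 17 members. Sult2a6 averaged 8.77 ± 1.31 in vehicle, 10.36 ± 0.83 at 10 mg/kg and 9.22 ± 0.76 at 30 mg/kg (SD, n = 5 each), a fold of 3.02 (95% confidence interval 1.31 to 7.00) and 1.37, with limma adjusted p = 0.266 and 0.732. Sult1c2 was at 0.671-fold and 1.12-fold, and Sult1c2a at 0.691-fold and 0.951-fold, with limma adjusted p between 0.359 and 0.910.

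Genes that differ between male and female rat liver had medians of -0.02 and 0.07 over 12 members. Prlr, the prolactin receptor, was at 2.44-fold and 1.25-fold the vehicle level, Bcl6, a repressor, at 1.88-fold and 1.24-fold, and Cyp2c12, a P450 of female rats, at 0.913-fold and 1.42-fold, with limma adjusted p between 0.289 and 0.930. Leaving out 1 sample moved Bcl6 at 10 mg/kg from 0.91 on the log2 scale to 0.32, without vehicle sample 1, or 1.503, without vehicle sample 5. Cyp2c12 at 10 mg/kg turned from -0.13 to 0.28 without 10 mg/kg sample 1. At 30 mg/kg 1 of the other 2 probe sets of Prlr gave -0.34 and the other 0.24, against 0.32 on the log2 scale.

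The zonal marker lists had medians of opposite sign, with 0 calls by limma in either list. Pericentral genes had medians of -0.13 and -0.24 over 7 members, with 2 and 1 at an unadjusted p under 0.05. Periportal genes had medians of 0.20 and 0.17 over 10 members, with 4 at an unadjusted p under 0.05 at each dose. Over all genes the medians were -0.02 and -0.03, and 13.3% and 16.1% had such a p. Hsd17b13, given above with the steroid genes, was also on the periportal list. Glul, glutamine synthetase of the pericentral layer, was at 0.652-fold and 0.760-fold the vehicle level (limma adjusted p = 0.223 and 0.335). Tbx3 differed from vehicle by -0.49 and -0.51 on the log2 scale, and Axin2, a Wnt target, was at 1.01-fold and 0.781-fold. Sds, serine dehydratase, was at 1.38-fold and 1.43-fold (limma adjusted p = 0.365 and 0.256) and Cdh1, E-cadherin, at 1.24-fold and 1.20-fold. The other probe sets of Tbx3 gave smaller differences, -0.37 and -0.21 on one and -0.17 and -0.10 on the other.

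**Figure D5:**
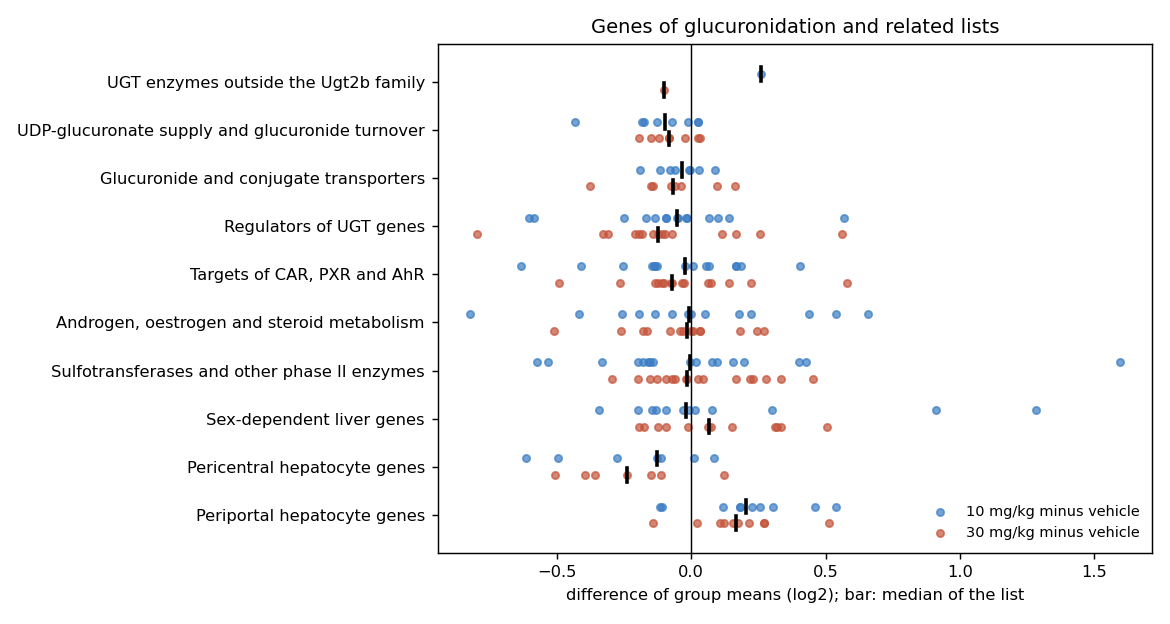
Difference of the group mean from vehicle (horizontal axis, log2) for the measured genes of the 10 lists (vertical axis), at 10 mg/kg (blue) and 30 mg/kg (red). Each point is 1 gene and black bars are list medians; medians lie within 0.13 of 0 except the periportal ones at 0.20 and 0.17, the pericentral one of -0.24 at 30 mg/kg and that of the UGT list, a single gene, of 0.26 at 10 mg/kg, and 0 of the 105 genes were called by limma.

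The samples themselves were alike. Pairwise correlations between arrays, across probe sets, lay between 0.989 and 0.996, and 0 pairs held identical values. Hepatocyte markers were bright, with a log2 summed level between 17.54 and 17.60 in every liver. Of the kidney markers on the array 0 of 4 passed the filter, and of the intestine and pancreas markers 1 of 5 did.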

How the data were processed

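Total RNA of 15 frozen liver samples was measured on 1 array each. The deposited values are log2 expression per probe set, already normalised between arrays by the authors. Per the submitters' processing notes, RMA, GCRMA 2.12.1 and limma 2.14.7 were used, and the step each served stays unstated. Normalisation between arrays removes any shift common to most genes, and dim probe sets show compressed differences. Values ran from 2.91 to 15.38, and array medians from 6.08 to 6.12. No batch was given in the labels, no depth applies, and the number of arrays limits the precision.

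Groups and numbers came from the sample titles. Symbols came from the platform annotation, updated through gene IDs to RefSeq names of GRCr8, which all 8 family probe sets matched. Of 31042 non-control probe sets, 20826 carried 1 symbol, 436 several and 9780 none. Promoter windows are from RefSeq. No reading of the array needed a genome.

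For tests, a probe set needed at least 5 of its 15 values above the median of all values, 6.10. A gene was represented by its brightest such probe set with 1 symbol, giving 9540 genes. Group means were fitted to all 15 arrays with limma 3.58.1 in R 4.3.3 (eBayes), with Benjamini-Hochberg adjustment over the 9540 genes and a threshold of 0.05. The procedure was tested on simulated data. Folds are powers of 2 of log2 differences. The family, the 10 lists, the markers and the tests were chosen with earlier results of these data known. Named were all family probe sets, of each list the called genes and the 3 with the largest difference from vehicle at either dose, and, from the 5 genes most alike to each member, all for Ugt2b, Ugt2b1 and Ugt2b10 and the first for the others. Likeness was the mean absolute difference between profiles scaled from 0 to 1, among probe sets with a log2 range of at least 1. Comparisons with vehicle share its samples. Alternatives were the filter, the choice of probe sets, normalisation, eBayes options, the samples fitted, the replicate number as a block and leaving out each sample. Same-numbered samples were not treated as paired. The correlation of their deviations from the group means was above 0.1 in 2 of 15 pairs and at most 0.153. Vehicle sample 2 and 30 mg/kg sample 1, with different numbers, gave 0.149. These correlations do not settle whether samples were paired.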

Additional observations from a re-analysis of the deposited data

Results flagged for a closer look

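Within groups of 5, the highest or lowest sample was marked when its distance to the nearest other exceeded 0.71 of the group's range (Dixon's criterion), which chance gives in about 1 of 20 groups. In the family 1 of 24 groups was marked. Ugt2b10 stood at 11.68 in vehicle sample 1, where the other vehicle samples lay between 10.79 and 10.95. Ugt2b1 in vehicle sample 2 fell just short of the criterion.

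Among the named genes of the lists 10 of 81 groups were marked. In vehicle sample 1, Sult2a6 was at 11.04 with the others between 7.81 and 8.53, Cyp3a9 at 6.95 with the others between 10.03 and 11.18, and Ces2c at 7.99 with the others between 8.36 and 8.48. In vehicle sample 5, Nqo1 was at 8.9975 and Rgn at 13.02. In 10 mg/kg sample 2, Sult1c2 was at 6.52 with the others between 8.09 and 8.41, and Glul at 10.67. In 10 mg/kg sample 4, Hsd17b6 was at 13.19 and Abcg2 at 8.43. In 30 mg/kg sample 4, Cdh1 was at 9.58 with the others between 10.65 and 10.93.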

How the results depend on the processing

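Of the listed genes, 0 were called by limma in all 69 counts, over 3 comparisons, with another setting or without 1 sample, and the lowest adjusted p of a named gene in them was 0.0563, for Hsd17b13 at 10 mg/kg without vehicle sample 1. Over all genes, the 10 calls at 10 mg/kg against vehicle became 3 with no filter and 16 with all probe sets as features. In the replicate block fit 0 genes were called and 1212 passed an unadjusted limma p of 0.05. The calls ran from 0 to 26 without 1 sample. Against vehicle at 30 mg/kg the 0 calls became 10 with all probe sets as features and ran from 0 to 5 without 1 sample. The cause was not tested. The replicate block changed no call of a listed gene. The 408 family differences under quantile normalisation, median centring or without 1 sample moved by less than the pooled SD between samples. Leaving out 1 of 5 samples cannot move a mean by that much, so for those fits nothing is read from it. Without 1 sample, Ugt2b on its first probe set differed from vehicle by 1.21 (without vehicle sample 5) to 3.13 at 10 mg/kg and by -3.34 to -1.33 at 30 mg/kg, and Ugt2b1 by 0.99 to 1.89 and 0.45 to 1.36, lowest without vehicle sample 2. Without 1 sample the sign turned in 6 of 16 family differences from vehicle, those of Ugt2b15 and Ugt2b34l1 at both doses, Ugt2b35 at 10 mg/kg and Ugt2b10 at 30 mg/kg, and in 11 of 54 of named listed genes. Without vehicle sample 1, Cyp3a9 differed from vehicle by -0.30 and -0.13 at the respective doses in place of 0.41 and 0.58, and Bcl6 at 30 mg/kg by -0.28 in place of 0.31 (0.90 without vehicle sample 5). Cyp2c12 at 10 mg/kg ran from -0.51 to 0.28.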
